A study of Homo sapiens with 10 samples.

Results

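The genes described here are 36 genes that act in G2 and mitosis, the last gap phase of the cell cycle and the division that follows it. They were taken by symbol from a count table of 57736 Ensembl gene IDs, and all 36 were found and passed the filter on low counts. They cover mitotic entry kinases and cyclins, one transcription factor (FOXM1), the spindle checkpoint, the anaphase-promoting complex with its substrates and activators, the chromosomal passenger complex, kinetochores, kinesins, spindle assembly factors, cytokinesis and chromosome structure.

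Most of these genes are transcribed together late in the cell cycle. In resting or early cycling cells their promoters are held silent by the MuvB complex with RB-family proteins, and in G2 the same complex, joined by B-MYB and FOXM1, activates them through a short element called the cell cycle genes homology region (CHR), often next to CCAAT boxes bound by NF-Y. Wild-type p53 lowers them indirectly, by raising the CDK inhibitor p21 (CDKN1A). The p53 proteins of the lines used here carry changes in the DNA-binding domain.

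RNA was sequenced from 3 human lung cancer cell lines, each with its own p53 mutation. The change is V157F in NCI-H2087 cells. It is R158L in the NCI-H441 line, and R158P in NCI-H2110. Cells of each line received siRNA against p53 or control siRNA; the p53 siRNA arm is a knockdown, although its sample titles call it a knockout. NCI-H2087 and NCI-H441 had 2 libraries in each arm, and NCI-H2110 had 1, which makes 10 libraries in 6 groups. The labels do not say whether replicates came from separate cultures, so p-values measure the spread between these libraries, which may be technical, and each mutation is seen in 1 line, so line and mutation cannot be told apart. Time after transfection is not given in the sources used here.

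Library totals ran from 18336672 to 25810934 counts. Levels are given as CPM, each library's counts divided by its total and scaled by trimmed mean of M-values (TMM) factors, which lay between 0.93 and 1.06. Summed epithelial markers lay between 3028 and 9191 CPM, with none of the 6 at 0 in any library, and summed leukocyte markers between 0.17 and 7.63 CPM, with 2 to 4 of 6 at 0.

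Promoter sequences from RefSeq (GRCh38.p14) were matched for 30 of the 36 genes, each running from 250 bases before to 50 bases after the annotated gene start. AURKA, FOXM1, TTK, UBE2C, BIRC5 and TPX2 had no entry. The CHR was searched as TTTGAA or TTCGAA, and the CCAAT box as CCAAT, on both strands; matches of the 2 motifs can share no more than 1 base at their ends. A CHR match was present in 24 of 30 mitosis promoters (80%), against 16.4% of all 35116 promoters in the table. These 35116 were not limited by gene type or to genes tested here, whereas all the mitosis genes were tested. CCNB1, PTTG1, AURKB, CENPE, KIF20A and KIF2C had no CHR match, and CENPE and KIF2C had no CCAAT match either. At least 1 CCAAT match was present in 24 of 30 (80%), against 34.6% of all promoters, and at least 2 in 16 of 30 (53.3%), against 10.8%. Both motifs were found in 20 of 30 (66.7%), against 6.38%. The windows below surround the CHR match nearest to the gene start. They come from 10 of the 24 genes that have a match, chosen among those named in later results, and not all such genes are shown. They are read 5′ to 3′ on the gene's strand, with the CHR letters in capitals. TTCAAA is TTTGAA read from the other strand, and TTCGAA reads the same on both.
PLK1: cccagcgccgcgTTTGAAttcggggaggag
BUB1: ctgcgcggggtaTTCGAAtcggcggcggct
CDC20: cgacggttggatTTTGAAggagccaatagg
NDC80: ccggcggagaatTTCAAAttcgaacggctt
KIF11: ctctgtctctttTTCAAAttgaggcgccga
ECT2: agcagcttagttTTTGAAtcggttgtgg
DLGAP5: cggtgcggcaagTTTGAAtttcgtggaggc
HMMR: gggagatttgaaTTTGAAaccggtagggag
MAD2L1: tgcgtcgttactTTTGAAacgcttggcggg
KIF4A: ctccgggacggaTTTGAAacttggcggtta
The CHR in PLK1 began at position -29 and that in KIF4A at position -34, counted from the first base of the gene as 0. It began at -28 in KIF11, at -22 in HMMR, at -65 in CDC20 and at -3 in NDC80. In BUB1, DLGAP5, MAD2L1 and ECT2 it lay just after the annotated start, at positions 1, 3, 24 and 34. Among the matches not shown, those of CDK1 and TOP2A lay farthest from the start, at -161 and -151. The promoter of CDC20 (chr1:43358731-43359030, plus strand), which encodes the activator that turns the anaphase-promoting complex on at anaphase, is given whole to show CHR and CCAAT letters (capitals) side by side.
CDC20 promoter: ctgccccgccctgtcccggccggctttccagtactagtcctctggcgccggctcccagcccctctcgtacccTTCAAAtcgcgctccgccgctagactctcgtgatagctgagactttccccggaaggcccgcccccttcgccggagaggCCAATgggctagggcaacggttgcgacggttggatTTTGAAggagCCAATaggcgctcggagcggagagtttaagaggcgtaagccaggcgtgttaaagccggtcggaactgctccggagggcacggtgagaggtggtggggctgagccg
A match is a description of the letters, not evidence of binding in these cells.

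The summed level of the mitosis genes differed most between replicate numbers of NCI-H2087. Summed over the 36 genes, NCI-H2087 libraries had 9599 and 5196 CPM (replicates 1 and 2) with p53 siRNA, against 7221 and 4689 CPM with control siRNA. Replicate 1 was the higher library in both arms. In NCI-H441 the sums were 6719 and 5198 CPM with p53 siRNA, against 7020 and 6240 CPM with control siRNA. The NCI-H2110 sums were 6056 CPM with p53 siRNA and 6315 CPM with control siRNA. As a share of all counts the 36 genes took from 0.487% to 0.894% of a library. The NCI-H2087 p53 siRNA arm held both the highest and the lowest share of the 10 libraries.

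**Figure D1:**
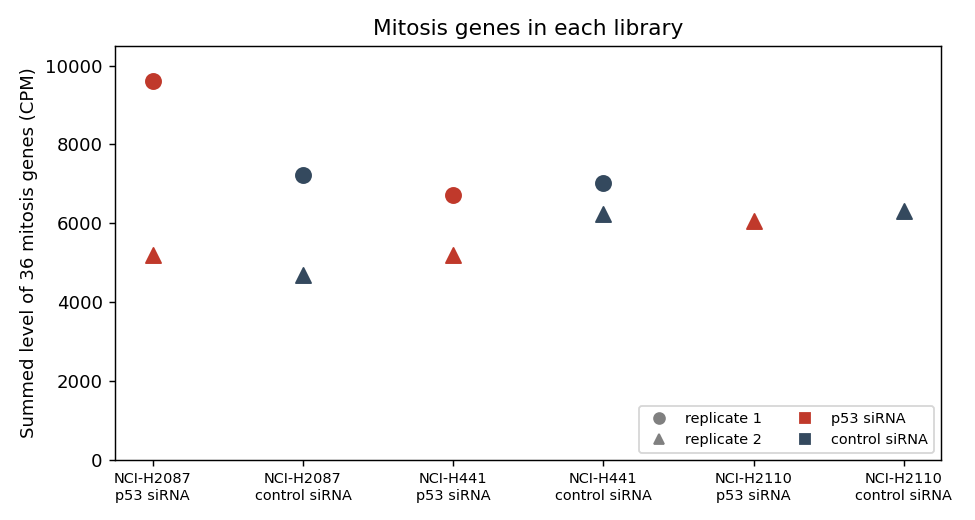
Summed level of the 36 mitosis genes (CPM, axis from 0) in each library, by cell line and siRNA; circles are replicate 1 and triangles replicate 2, red p53 siRNA and dark grey control siRNA. NCI-H2087 replicate 1 libraries reach 9599 CPM with p53 siRNA and 7221 CPM with control siRNA, and replicate 2 libraries lie at 5196 and 4689 CPM.

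This difference ran through every one of the genes. In NCI-H2087 all 36 were higher in replicate 1 than in replicate 2, in both arms. The median ratio of replicate 1 over replicate 2 was 0.84 on the log2 scale (1.79-fold) with p53 siRNA and 0.65 (1.57-fold) with control siRNA, against medians of 0 and -0.01 over the 17978 genes tested. In both arms, 23 of the 36 genes were more than 1.5-fold higher in replicate 1, against 2.85% of all genes tested. The smallest ratios were those of PTTG1, the securin that holds separase inactive, at 0.48 with p53 siRNA and 0.38 with control siRNA. ANLN, an actin-binding protein of the cleavage furrow, had the largest ratio with p53 siRNA, 1.38, and KIF11, the kinesin that pushes spindle poles apart, the largest with control siRNA, 1.04. Past 1.5-fold in both arms were 5 of 5 kinetochore genes, 4 of 4 spindle assembly genes and 5 of 6 entry kinases and cyclins, but 2 of 5 kinesins, 1 of 3 chromosomal passenger genes and not FOXM1.

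In NCI-H441 the same ratios were smaller. With p53 siRNA, replicate 1 was higher for 33 of 36 genes (median 0.39), against 48% of all genes tested. With control siRNA it was higher for 31 of 36 (median 0.13), against 47.8%. In both arms it was higher for 31 of 36, against 30.8%. None of the 36 was past 1.5-fold in both arms, against 4.12% of all genes tested; 10 were past it with p53 siRNA, against 12.9% of all genes, and 0 with control siRNA, against 10.9%. KIF11 had the largest ratio with p53 siRNA, 1.06, and FOXM1 the lowest, -0.36. Summed alveolar markers in NCI-H441 also followed the replicate number, at 1578 and 717 CPM (replicates 1 and 2) with p53 siRNA, against 1494 and 651 CPM with control siRNA; their part in the ratios was not tested. Replicates 1 and 2 differed together between the arms over other genes: over the 9332 genes whose log2 CPM averaged 3 or more, the ratios of the p53 siRNA arm and the control siRNA arm had a Pearson r of 0.53 in NCI-H2087. In NCI-H441 it was 0.60. These are correlations across genes, which are not independent replicates and share libraries. Changes with p53 siRNA were therefore also fitted with the replicate number as a block within each line. For most single genes only the blocked value is given, and none of the 36 passed unblocked. In bulk RNA, a larger share of cells in G2 or mitosis and more of these transcripts in each such cell cannot be told apart.

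**Figure D2:**
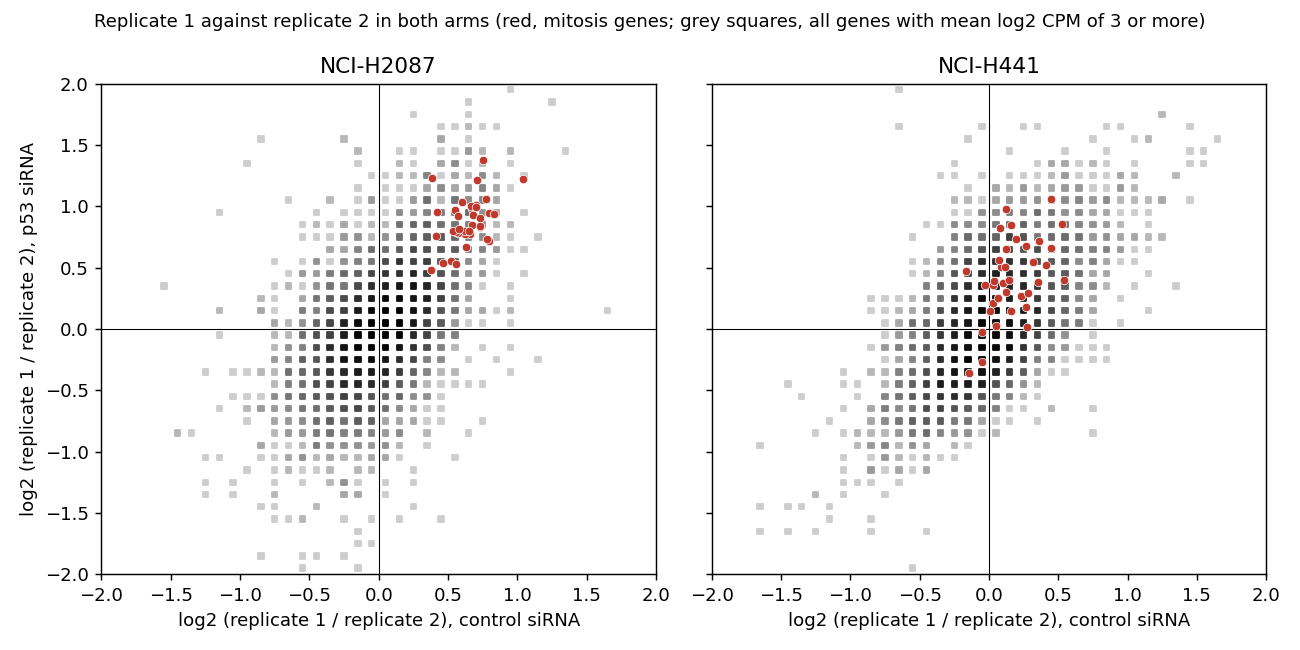
Log2 ratio of replicate 1 over replicate 2 with p53 siRNA (vertical axis) and control siRNA (horizontal axis) in NCI-H2087 and NCI-H441; red points are the 36 mitosis genes, and grey squares, darker for more genes, all genes with a mean log2 CPM of 3 or more and ratios within the axes. In NCI-H2087 all 36 red points lie above 0 on both axes, with medians of 0.84 and 0.65, and in NCI-H441 their medians are 0.39 and 0.13.

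**Figure D3:**
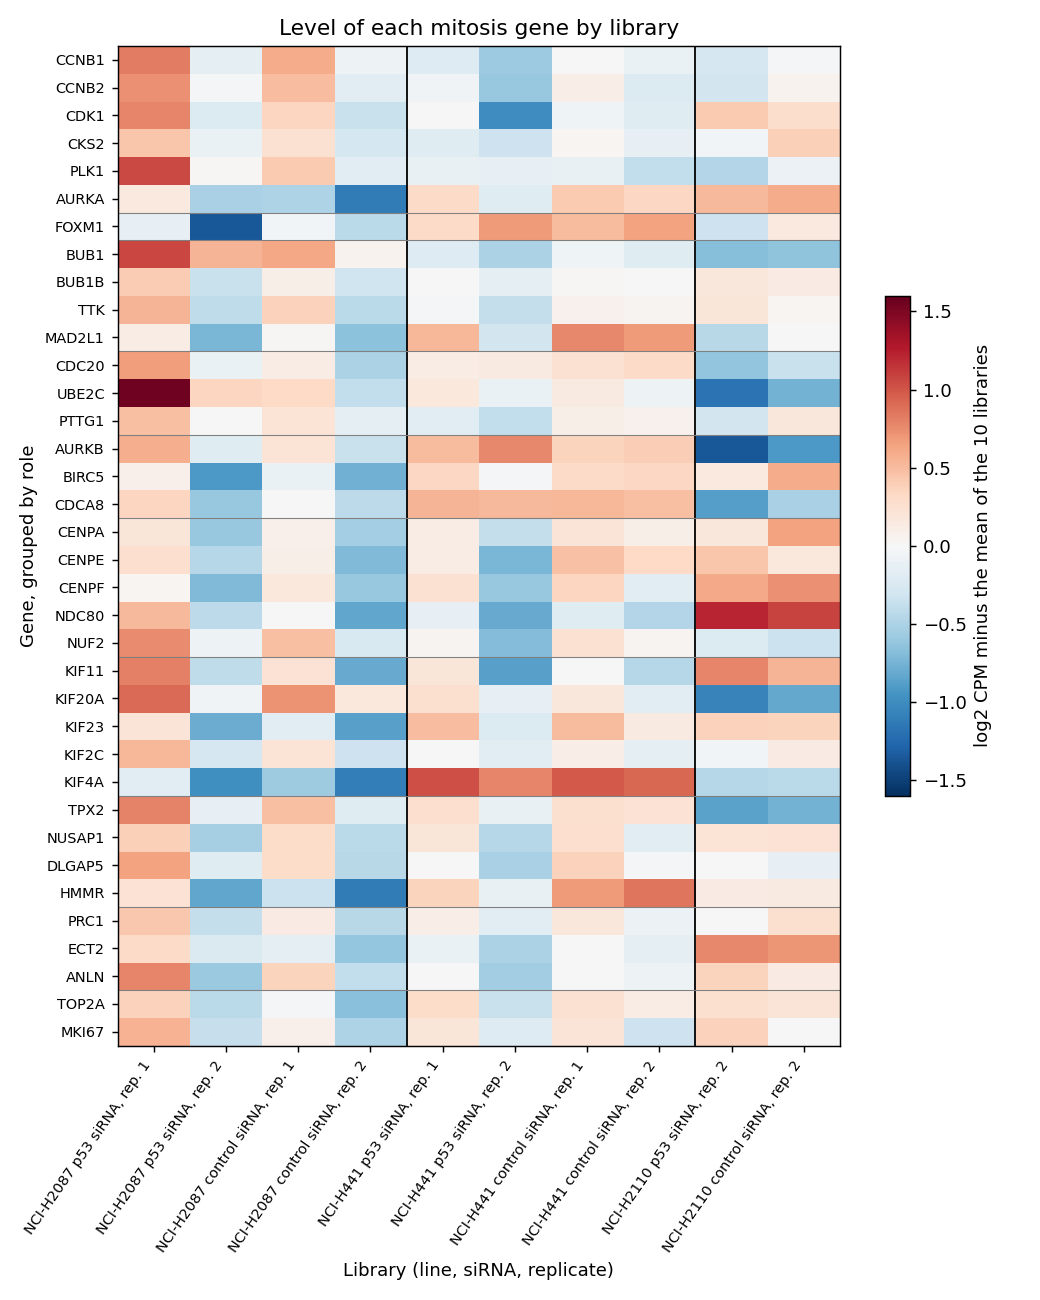
Level of each mitosis gene in each library, as log2 CPM minus that gene's mean over the 10 libraries; rows are grouped by role, and vertical lines part NCI-H2087, NCI-H441 and NCI-H2110. The NCI-H2087 replicate 1 columns are redder than the replicate 2 columns for all 36 genes in both arms, and KIF4A stands high in all 4 NCI-H441 libraries.

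In NCI-H2087, none of the 36 genes passed the test for a change with p53 siRNA in the unblocked fit (edgeR quasi-likelihood, adjusted p below 0.05), where 8.68% of all genes tested did, 4.98% higher and 3.69% lower. Two-sided unadjusted p was below 0.05 for 2 of them, DESeq2 called 1 (UBE2C, higher) and limma-voom 0. Their log2 changes were above 0 for 34 genes, with a median of 0.23, against -0.03 over all genes tested. Scaled by library totals alone the median was 0.05, with 25 above 0, and that of all genes -0.21. With the replicate block, 8 genes rose and 1 fell, where 12.8% of all genes tested rose and 12.6% fell. The 9 calls of 36 are close to the 25.4% of all genes called in that fit. In the unblocked edgeR fit, the adjusted p of these 9 genes ran from 0.0966 (UBE2C) to 0.529 (KIF11). Nuclear pseudogenes of mitochondrial genes took 2.48% and 2.25% of counts in the p53 siRNA libraries, against 4.85% and 5.51% in the control siRNA libraries. Summed epithelial markers stood at 9183 and 9191 CPM with p53 siRNA, against 4119 and 3784 CPM with control siRNA. Summed alveolar markers stood at 384 and 221 CPM with p53 siRNA, against 959 and 1043 CPM with control siRNA, with 1 of 6 at 0 in each p53 siRNA library and 0 in each control siRNA library. Summed endothelial markers stood at 12.5 and 7.48 CPM with p53 siRNA, against 22.5 and 24.7 CPM with control siRNA. The part of these shifts in the changes of the mitosis genes was not tested.

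UBE2C, the ubiquitin-conjugating enzyme that works with the anaphase-promoting complex, had 1089 and 468 CPM with p53 siRNA, against 460 and 281 CPM with control siRNA. It was the only one of the 36 whose p53 siRNA libraries both lay above both control libraries, by a narrow gap, and none lay below; 25.4% of all genes tested lay above and 30.4% below. Its log2 change (± SE, as for the changes that follow) was 1.07 ± 0.36 (95% interval 0.27 to 1.87, adjusted p = 0.0966) unblocked and 0.99 ± 0.14 (adjusted p = 0.000145) blocked. CDC20 had 260 and 152 CPM with p53 siRNA, against 178 and 116 CPM with control siRNA, and rose in the blocked fit by 0.47 ± 0.13 (adjusted p = 0.0149). The third gene of this role, PTTG1, had 370 and 265 CPM with p53 siRNA, against 308 and 238 CPM with control siRNA, a blocked change of 0.21 ± 0.13 that did not pass (adjusted p = 0.261).

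Of the 6 entry kinases and cyclins, AURKA and PLK1 rose in the blocked fit. AURKA, the centrosomal kinase that matures spindle poles and activates PLK1, had 139 and 87.3 CPM with p53 siRNA, against 89.3 and 57.6 CPM with control siRNA. Its ratio was nearly the same in the replicate 1 and replicate 2 pairs, 0.64 and 0.60, and its blocked change was 0.62 ± 0.14 (adjusted p = 0.00472). PLK1, the polo-like kinase that drives entry, spindle building and exit, had 169 and 82.1 CPM with p53 siRNA, against 108 and 71.4 CPM with control siRNA, a blocked change of 0.42 ± 0.15 (adjusted p = 0.0481). CDK1, the kinase at the centre of mitotic entry, its cyclins CCNB1 and CCNB2, and its subunit CKS2 had blocked changes between 0.07 and 0.29 that did not pass.

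In the spindle checkpoint, which holds anaphase until all kinetochores are attached, 1 of 4 genes rose in the blocked fit. BUB1, a checkpoint kinase, had 488 and 337 CPM with p53 siRNA, against 357 and 242 CPM with control siRNA, a blocked change of 0.47 ± 0.13 (adjusted p = 0.0154). BUB1B, TTK and MAD2L1 had blocked changes of 0.13, 0.10 and 0.03, and none passed. NDC80, the microtubule-binding subunit at the outer kinetochore, had 46.9 and 24.5 CPM with p53 siRNA, against 32.8 and 18.4 CPM with control siRNA, a blocked change of 0.47 ± 0.16 (adjusted p = 0.0394). The other 4 kinetochore and centromere genes, CENPA, CENPE, CENPF and NUF2, lay between -0.13 and 0.22.

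KIF11 had 119 and 51.0 CPM with p53 siRNA, against 79.5 and 38.6 CPM with control siRNA, and rose in the blocked fit by 0.49 ± 0.16 (adjusted p = 0.0327). Like those of every other gene called in the blocked NCI-H2087 fit, its 2 p53 siRNA libraries differed more from each other than the means of the arms did. ECT2, the exchange factor that activates RhoA at the division plane, had 339 and 233 CPM with p53 siRNA, against 247 and 180 CPM with control siRNA, a blocked change of 0.42 ± 0.13 (adjusted p = 0.0301). The other 4 kinesins, the other 2 cytokinesis genes, the 4 spindle assembly genes and the 3 chromosomal passenger genes held no gene that passed. HMMR, a spindle pole protein, came nearest at 0.44 ± 0.17 (adjusted p = 0.0661). MKI67, the protein detected as the proliferation marker Ki-67, and TOP2A, the topoisomerase that untangles sister chromatids, had blocked changes of 0.30 ± 0.13 and 0.31 ± 0.14 (adjusted p = 0.115 and 0.135).

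FOXM1, the forkhead factor that activates many of the other genes in G2, went the other way. It had 140 and 59.8 CPM with p53 siRNA, against 150 and 114 CPM with control siRNA. The pair of replicate 2 carried most of this, with a ratio of -0.93 against -0.09 in the replicate 1 pair. The blocked change was -0.51 ± 0.17 (adjusted p = 0.0422), and with the replicate block and relative log expression (RLE) size factors FOXM1 did not pass. With the replicate block and library totals alone, AURKA (0.44), UBE2C (0.81) and FOXM1 (-0.69) passed and the other 6 did not.

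The median over the 36 genes hung on single NCI-H2087 libraries, since each arm held 1 high and 1 low library. Without p53 siRNA replicate 1 it was -0.23, with 5 genes above 0 and FOXM1 called lower, and without control siRNA replicate 2 it was -0.02, with 16 above 0. Without p53 siRNA replicate 2 it was 0.60, with UBE2C called higher, and without control siRNA replicate 1 it was 0.61. Within pairs of the same number, 34 genes were higher with p53 siRNA in pair 1 (median 0.33) and 25 in pair 2 (median 0.13). Of all genes tested, 45.7% and 45.4% were higher. With library totals alone the counts of mitosis genes were 28 and 12, with medians of 0.14 and -0.04, against -0.19 and -0.20 over all genes.

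**Figure D4:**
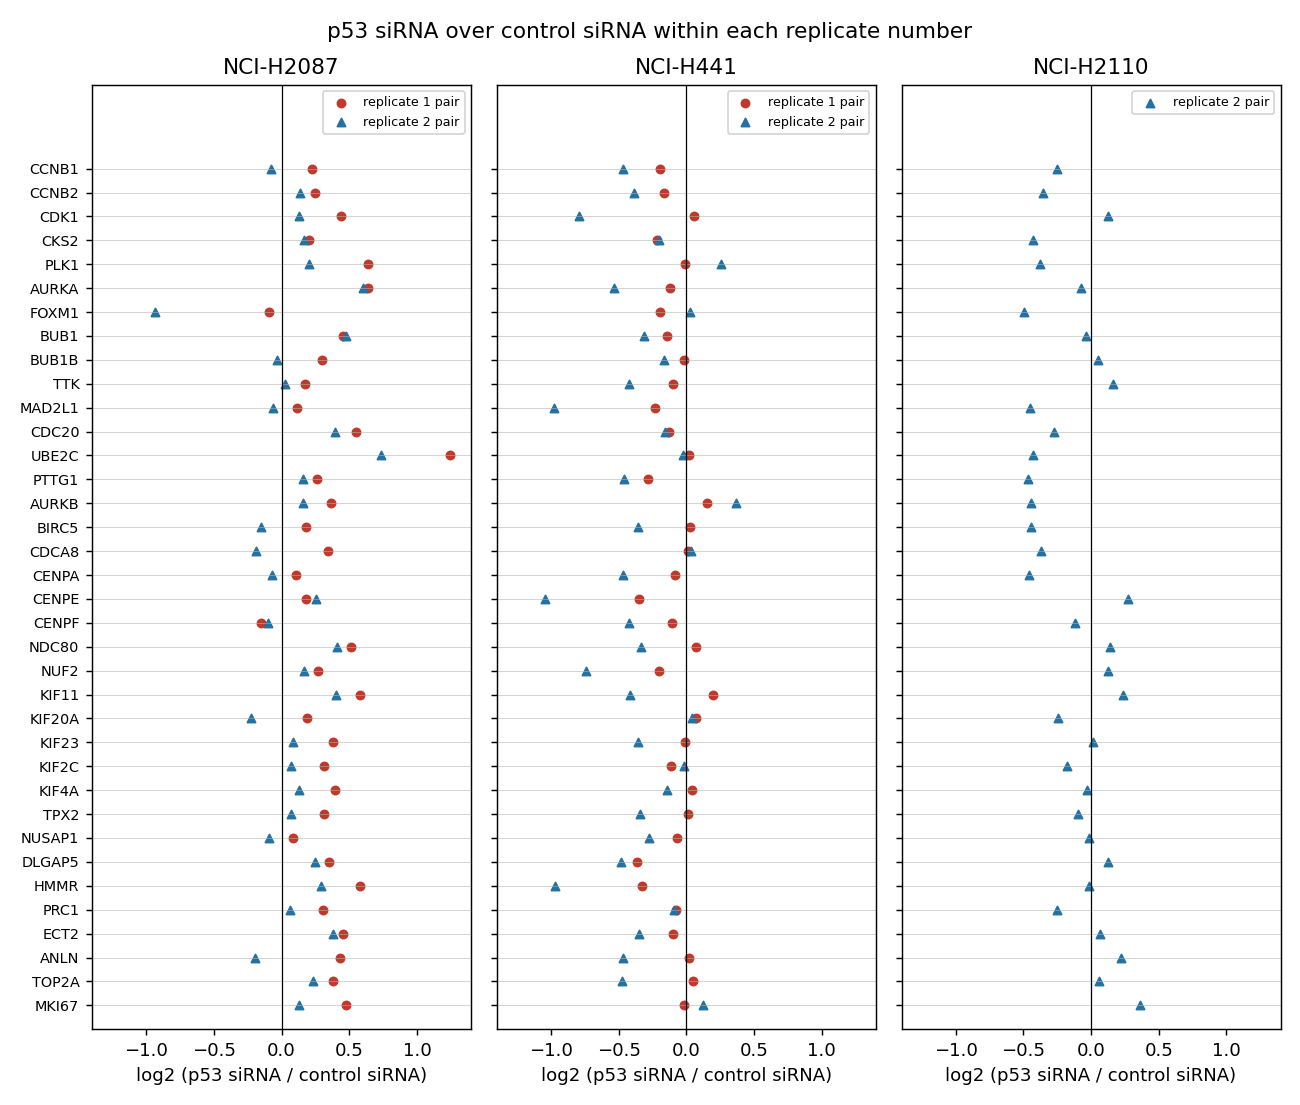
Log2 ratio of p53 siRNA over control siRNA for each mitosis gene within each pair of equal replicate number, by cell line; circles are the replicate 1 pair and triangles the replicate 2 pair, and NCI-H2110 has 1 pair. In NCI-H2087 34 circles and 25 triangles lie above 0, in NCI-H441 12 circles and 6 triangles, and in NCI-H2110 13 triangles.

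In NCI-H441, none of the 36 genes passed in the unblocked fit, where 0.00556% of all genes tested did, or in the blocked fit, where 0.417% did. None had an unadjusted p below 0.05 unblocked and 8 did blocked. The share of all genes at that unadjusted cut is not given, so the 8 cannot be read as an excess. DESeq2 and limma-voom also called 0. The log2 changes were below 0 for 31 of 36 genes, with a median of -0.17, against 0.01 over all genes tested. The 12 genes whose p53 siRNA libraries both lay below both control siRNA libraries included MAD2L1, CENPE, HMMR, AURKA and CCNB1, and AURKB alone lay above; 17% of all genes tested lay below and 17% above.

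CENPE, the kinesin that carries chromosomes to the metaphase plate, had 45.7 and 25.3 CPM with p53 siRNA, against 58.3 and 52.3 CPM with control siRNA. The low value was that of replicate 2, and the blocked change of -0.69 ± 0.17 did not pass (adjusted p = 0.0958). HMMR had 73.2 and 52.8 CPM with p53 siRNA, against 92.0 and 103 CPM with control siRNA (-0.65 ± 0.16, adjusted p = 0.109). MAD2L1, the checkpoint protein that sequesters CDC20, had 71.5 and 40.3 CPM with p53 siRNA, against 84.0 and 79.4 CPM with control siRNA (-0.60 ± 0.17, adjusted p = 0.150). AURKB, the kinase of the chromosomal passenger complex, had 138 and 166 CPM with p53 siRNA, against 124 and 128 CPM with control siRNA (0.26 ± 0.14, adjusted p = 0.430). These are blocked values. In the unblocked edgeR fit the adjusted p was 0.933 for CENPE, HMMR and MAD2L1 and 0.939 for AURKB. Over the 36 genes the replicate 2 pair gave the lower ratios. Its median was -0.35, with 5 genes past 1.5-fold down, against 9.82% of all genes tested. The replicate 1 pair had a median of -0.08 with none past 1.5-fold down, against 7.33%. Without p53 siRNA replicate 2 the median over the 36 genes was 0.02, with 19 above 0.

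NCI-H2110 had 1 library in each arm, so its ratios have no replicate check. None of the 36 was past 1.5-fold in either direction, where 8.97% of all genes tested were past it upwards and 7.65% downwards. The median log2 ratio was -0.09, with 13 genes above 0, against 46% of all genes tested. FOXM1 was the lowest, with 122 CPM with p53 siRNA and 171 CPM with control siRNA, a ratio of -0.49, and MKI67 the highest, with 705 CPM with p53 siRNA and 549 CPM with control siRNA, a ratio of 0.36. UBE2C had 163 CPM with p53 siRNA and 219 CPM with control siRNA, a ratio of -0.43.

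Fitted as 1 change shared by the 3 lines, the 36 genes had a median log2 change of 0.01, with 19 above 0, against -0.02 over all genes tested. None passed, where 0.395% of all genes tested did in the unblocked fit and 0.395% in the blocked fit; unadjusted p was below 0.05 for 0 unblocked and for 1 blocked, FOXM1 at -0.33 ± 0.15 (adjusted p = 0.302). DESeq2 and limma-voom called 0. The estimate farthest above 0 was that of UBE2C, 0.34 ± 0.28 (95% interval -0.26 to 0.94, adjusted p = 0.627).

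The difference between the changes in NCI-H2087 and NCI-H441 was tested directly. Unblocked, 0 of 36 genes passed, against 0.412% of all genes tested, with 2 at an unadjusted p below 0.05 and 0 called by DESeq2 or limma-voom; the median difference was 0.42, with 34 above 0, against -0.03 over all genes. With the replicate block, the change in NCI-H2087 was higher than that in NCI-H441 for 8 genes, where 4.66% of all genes tested were higher, and lower for 0, where 4.26% were lower (8.92% in all). These were AURKA, BUB1, CDC20, UBE2C, CENPE, DLGAP5, HMMR and ECT2. HMMR had the widest gap, 1.09 ± 0.23 (adjusted p = 0.00962), made of 0.44 in NCI-H2087 and -0.65 in NCI-H441. AURKA differed by 0.95 ± 0.20 (adjusted p = 0.00857), made of 0.62 and -0.33, and CENPE by 0.91 ± 0.24 (adjusted p = 0.0268), made of 0.22 and -0.69. UBE2C differed by 0.99 ± 0.20 (adjusted p = 0.00673), made of 0.99 and -0.00, so that for this gene the gap was that of NCI-H2087. DLGAP5, a microtubule-bundling protein of the spindle, differed by 0.73 ± 0.19 (adjusted p = 0.0253). For DLGAP5, HMMR and CENPE neither line's own change passed, and in NCI-H441 no change passed for any of the 36. With the block and library totals alone 3 of the 8 passed, AURKA, UBE2C and HMMR. Without NCI-H2087 p53 siRNA replicate 1, the unblocked median difference was -0.15, with 16 above 0. The 2 lines' own changes have no library in common.

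With control siRNA, NCI-H2087 and NCI-H441 differed at 4 of the 36 genes, all lower in NCI-H2087, where 20.1% of all genes tested were lower and 22% higher (42.1% in all). KIF4A, the kinesin that shortens the central spindle and compacts chromosomes, had 39.9 and 27.5 CPM in NCI-H2087, against 118 and 113 CPM in NCI-H441, a difference of -1.78 ± 0.28 (adjusted p = 0.000728). The p53 siRNA libraries showed the same order, 52.6 and 30.2 CPM in NCI-H2087, against 122 and 102 CPM in NCI-H441, and NCI-H2110 had 43.2 and 44.2 CPM with p53 and control siRNA. HMMR had 45.0 and 26.3 CPM in NCI-H2087, against 92.0 and 103 CPM in NCI-H441 (-1.46 ± 0.36, adjusted p = 0.00889). AURKA averaged 73.4 ± 22.4 CPM in NCI-H2087 and 163 ± 6.91 CPM in NCI-H441 (SD, n = 2 each), a difference past the spread between libraries (-1.15 ± 0.28, adjusted p = 0.00869). MAD2L1 had 49.9 and 31.2 CPM in NCI-H2087, against 84.0 and 79.4 CPM in NCI-H441 (-1.01 ± 0.34, adjusted p = 0.0391).

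The control libraries of these 2 lines did not overlap at 14 of the 36 genes. In NCI-H2087 13 lay below NCI-H441, among them FOXM1, AURKB, BIRC5, CDCA8, CENPA, CENPE, KIF23 and TOP2A, against 36.5% of all genes tested, and BUB1 lay above, against 38.4%. FOXM1 had 150 and 114 CPM in NCI-H2087, against 218 and 240 CPM in NCI-H441 (-0.80 ± 0.33, adjusted p = 0.0815). All 3 chromosomal passenger genes lay below 0, CDCA8 at -0.69 ± 0.28 and BIRC5 (survivin) at -0.72 ± 0.32, and neither passed. BUB1 had 357 and 242 CPM in NCI-H2087, against 222 and 204 CPM in NCI-H441 (0.49 ± 0.24, adjusted p = 0.121). The median over the 36 genes was -0.12, against 0.02 over all genes. DESeq2 called 6 of the 36, adding FOXM1 and CDCA8 to the 4. Shares over all genes are not given for DESeq2, for counts at an unadjusted p below 0.05 or for the fits that leave out a library. The 4 calls were 8 without either 1 of the NCI-H2087 p53 siRNA libraries, which enter only through the shared estimate of the spread, and 1 (KIF4A) without NCI-H2087 control siRNA replicate 2, where the median was 0.11.

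**Figure D5:**
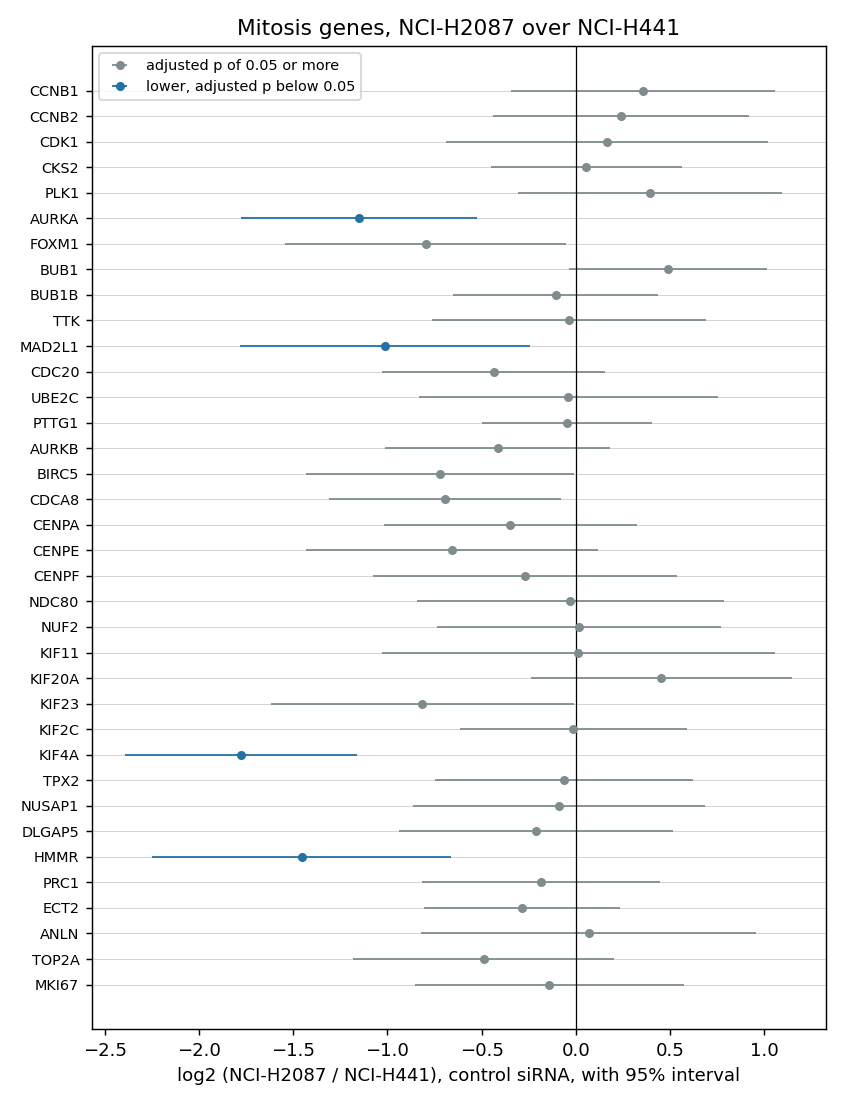
Log2 difference between NCI-H2087 and NCI-H441 with control siRNA for each mitosis gene, with its 95% interval; blue marks genes lower in NCI-H2087 at an adjusted p below 0.05 and grey those that did not pass. KIF4A is farthest below 0 at -1.78, followed by HMMR at -1.46, AURKA at -1.15 and MAD2L1 at -1.01.

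Other genes of the same pathways were read from 7 lists, set against the 4.98% of all genes tested that rose and the 3.69% that fell in NCI-H2087 unblocked. Of 14 CDK inhibitors and G1 cyclins tested, 2 rose with p53 siRNA in NCI-H2087 unblocked and 0 fell. CDKN1A, which encodes p21, had 78.7 and 101 CPM with p53 siRNA, against 20.2 and 19.8 CPM with control siRNA (2.17 ± 0.18, adjusted p = 0.000577). CDKN1C, which encodes p57, had 3.29 and 7.56 CPM with p53 siRNA, against 0.88 and 0.98 CPM with control siRNA (2.54 ± 0.51, adjusted p = 0.0162). CDKN1A had 91.7 and 94.9 CPM with p53 siRNA, against 81.8 and 69.1 CPM with control siRNA in NCI-H441, and its change was 1.86 ± 0.25 higher in NCI-H2087 than in NCI-H441 (adjusted p = 0.0257). In NCI-H2110 it had 117 CPM with p53 siRNA and 59.1 CPM with control siRNA.

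Of 22 genes that control transcription of the mitosis genes, 1 fell in NCI-H2087 and 0 rose. RB1, the retinoblastoma pocket protein, had 48.1 and 34.1 CPM with p53 siRNA, against 98.8 and 77.8 CPM with control siRNA (-1.10 ± 0.26, adjusted p = 0.0316); in NCI-H441 it had 59.95 and 36.7 CPM with p53 siRNA, against 77.9 and 87.4 CPM with control siRNA (-0.78 ± 0.26, adjusted p = 0.933). Of 18 other mitotic entry genes 2 rose, CDC25B, a phosphatase that activates CDK1 (0.65 ± 0.17, adjusted p = 0.0408), and ARPP19, an inhibitor of the phosphatase PP2A-B55 (0.80 ± 0.21, adjusted p = 0.0428). Of 17 anaphase-promoting complex genes the subunit ANAPC5 fell (-0.53 ± 0.14, adjusted p = 0.04995), and of 23 other spindle and cytokinesis genes the myosin heavy chain MYH9 rose (0.71 ± 0.15, adjusted p = 0.0204). None of 34 other kinetochore genes or 19 condensin, cohesin and separase genes passed; SGO1, the protector of centromeric cohesion, had 0.92 ± 0.28 (adjusted p = 0.0744) and the condensin subunit NCAPD2 0.60 ± 0.20 (adjusted p = 0.0934). With the replicate block, where 12.8% of all genes tested rose and 12.6% fell, the numbers that rose and fell were 5 and 4 CDK inhibitors and G1 cyclins, 1 and 4 transcription control genes, 3 and 0 entry genes, 1 and 2 anaphase-promoting complex genes, 8 and 0 kinetochore genes, 1 and 0 condensin, cohesin and separase genes, and 2 and 2 spindle and cytokinesis genes. In NCI-H441, and for the shared change, none of the 7 lists held a called gene in either fit.

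The replicate ratios of NCI-H2087 were also read over the 7 lists. In both arms replicate 1 was higher for 32 of 34 other kinetochore genes, 17 of 18 entry genes, 17 of 19 condensin, cohesin and separase genes, 19 of 23 spindle and cytokinesis genes and 16 of 22 transcription control genes, against 29.8% of all genes tested. The transcription control genes had medians of 0.43 with p53 siRNA and 0.24 with control siRNA. Replicate 1 was higher for 9 of 17 anaphase-promoting complex genes and 6 of 14 CDK inhibitors and G1 cyclins, with medians of 0.08 and 0.12 with p53 siRNA and 0.09 and 0.04 with control siRNA.

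Between the lines with control siRNA, where 22% of all genes tested were higher in NCI-H2087 and 20.1% lower, the lists held these calls: 2 higher and 6 lower of 22 transcription control genes, 3 and 3 of 14 CDK inhibitors and G1 cyclins, 1 and 4 of 18 entry genes, 2 and 4 of 17 anaphase-promoting complex genes, 3 and 7 of 34 kinetochore genes, 0 and 4 of 19 condensin, cohesin and separase genes, and 3 and 3 of 23 spindle and cytokinesis genes. CDK4, the G1 kinase that phosphorylates RB1, had 1907 and 1864 CPM in NCI-H2087, against 168 and 174 CPM in NCI-H441 (3.46 ± 0.18, adjusted p = 1.49e-06). CDKN2A, the locus of its inhibitor p16, had 63.1 and 68.8 CPM in NCI-H2087, against 14.4 and 14.0 CPM in NCI-H441 (2.22 ± 0.17, adjusted p = 1.17e-05). The spindle protein SPAG5 (-2.14 ± 0.25, adjusted p = 0.000132), the kinase MELK (-2.08 ± 0.30, adjusted p = 0.000461) and the kinetochore subunit SKA1 (-1.94 ± 0.30, adjusted p = 0.000747) were lower in NCI-H2087.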

How the data were processed

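RNA was extracted with the RNeasy Plus Mini kit and libraries made with a Lexogen mRNA kit, per the labels' protocols. The deposited table holds whole-number counts per Ensembl gene ID, made by the authors. The submitters' processing notes name Bowtie2, RSEM 1.2.12 and hg19 without saying their roles; whether the counts are rounded RSEM estimates, and whether strand was used, is not given in the sources used here. Symbols came from a table of gene names (51959 IDs) and GENCODE (342 IDs), and 5435 IDs stayed unnamed.

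In R 4.3.3, edgeR 4.0.16 (filterByExpr, TMM, quasi-likelihood test, two-sided) was fitted to all 10 libraries with a mean for each of 6 groups (4 residual degrees of freedom); 17978 genes holding 99.96% of counts were tested. The shared change used line and siRNA as terms (6 degrees of freedom). The biological coefficient of variation was 19.83%. P-values were adjusted over all genes by Benjamini-Hochberg at 0.05. CPM used TMM library sizes; log2 ratios of single libraries used a prior count of 2. Intervals are at 95%. Library depth was 18336672 to 25810934 counts.

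Replicate numbers come from the labels. They were taken to pair the arms within a line because same-numbered libraries of the same line deviated together in each of 2 lines (r = 0.53 and 0.60); between the lines the control arms' replicate ratios had r = -0.11. The blocked fit leaves 2 residual degrees of freedom (4 for the shared change). Alternatives were RLE size factors, library totals, no filter, only the lines compared, leaving out each library, limma-voom (limma 3.58.1) and DESeq2 1.42.0; the block with other scalings was added after seeing the data. The scripts were tested on simulated data. The genes, lists and tests were chosen with earlier results of these data known. All 36 genes could be named, as could, per list and comparison, up to 4 called genes of smallest p, or 2 where none was called. A check of the siRNA arms is not reported here.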

Additional observations from a re-analysis of the deposited data

Results flagged for a closer look

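For 8 mitosis genes the change with p53 siRNA in NCI-H2087 differed from that in NCI-H441 by the test of the difference itself in the fit with the replicate block (edgeR, adjusted p below 0.05); in the unblocked fit none of the 8 passed, and with no filter on low counts 3 did unblocked (AURKA, UBE2C and HMMR). The log2 differences, NCI-H2087 change minus NCI-H441 change, were 0.95 for AURKA, 0.69 for BUB1, 0.61 for CDC20, 0.99 for UBE2C, 0.91 for CENPE, 0.73 for DLGAP5, 1.09 for HMMR and 0.64 for ECT2, with adjusted p of 0.00857, 0.0281, 0.05, 0.00673, 0.0268, 0.0253, 0.00962 and 0.0435. The value for CDC20 lies just below 0.05 before rounding. Over all genes tested, 8.92% passed this blocked test. With the block and library totals alone only AURKA, UBE2C and HMMR passed, and with the block and RLE size factors all 8 did. DESeq2 and limma-voom, run without the block, called none of the 8.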

How the results depend on the processing

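The share of all genes called is given in this report for the unblocked fit and, for p53 siRNA, the replicate block with TMM factors. Other counts below have no such share, so they do not show whether the 36 genes or all genes were called more often. The number of mitosis genes called with p53 siRNA in NCI-H2087 was 0, and was 2 with no filter on low counts, 1 with DESeq2, 9 with the replicate block, 3 with the replicate block and library totals alone, and 8 with the replicate block and RLE size factors. For the difference between NCI-H2087 and NCI-H441 changes it was 0, and was 3, 8, 3 and 8 with no filter, the replicate block, the block with library totals and the block with RLE size factors. For NCI-H2087 over NCI-H441 with control siRNA it was 4, and was 6 with DESeq2 and 11 with no filter. It was 11 with the replicate number as a block, 10 with that block and library totals and 11 with that block and RLE size factors. That block serves only as a check, since the control arms' replicate ratios had r = -0.11 between the lines over 9332 genes. For the mitosis genes alone, replicate 1 was higher with control siRNA for all 36 in NCI-H2087 and for 31 in NCI-H441. Leaving out each library gave 0 to 1 calls for NCI-H2087, 1 to 8 for the lines with control siRNA, and 0 for NCI-H441, the shared change and the difference of changes; a lone library left in an arm is assumed to vary like the other groups. The counts for NCI-H441 and the shared change were 0 in every alternative run, and the count past 1.5-fold in NCI-H2110 was 0 with a prior count of 0.5 and with library totals alone. Over single genes, 2971 values in alternatives kept direction and side of the threshold, 84 passed where the reported fit did not, 5 no longer passed, and none that was called turned round; the cause was not tested. The blocked fit changed the calls named in the report and no other call among the 36 genes for p53 siRNA. Limits are 2 libraries per arm, 1 in NCI-H2110, and 1 line per mutation.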
